A study of Homo sapiens with 20 samples.

Results

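The HTRA serine protease genes HTRA1, HTRA2, HTRA3 and HTRA4 are the 4 members of this family among the 24196 genes measured in orthotopic ovarian tumors. The members were chosen by their gene symbols, and the family was selected on HTRA1, whose level differed between gluconate and PBS tumors in these same libraries. The group differences of the members are therefore given as descriptions, without a test. All 4 members are listed in the table, and 3 of them, HTRA1, HTRA2 and HTRA3, had a mean of at least 0.5 FPKM, while HTRA4 did not. FPKM counts the sequenced fragments that fall on a gene, divided by transcript length and library depth. Group levels below are means ± SD over the 4 libraries of a group, PBS tumors first.

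The tumors grew from cells of the human ovarian cancer line OVCAR8 in the ovarian fat pad of immunodeficient NSG mice that were 6 weeks old at injection. Mice received i.p. either PBS, the vehicle, or sodium gluconate at 1 mg/kg each week for 35 days, and 4 PBS and 4 gluconate libraries of polyA RNA were compared. This schedule is that of the study's efficacy experiment, and its text speaks of treated cells where the labels name tumors. The labels give no engineered allele for these libraries, all 8 share the cell line and the host, and the tumors of the efficacy experiment grew from luciferase-tagged cells with the control guide, sgNC. NSG mice lack mature lymphocytes and natural killer cells but keep myeloid cells, fibroblasts and vessels of their own. The labels do not say whether each replicate was a separate mouse, so the spread between them may be partly technical, although the efficacy experiment had as many mice in a group as there are libraries here. The series also has 12 libraries of knockout and control cells, which were not analysed here.

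HTRA proteins are serine proteases that assemble into trimers and carry a PDZ domain behind a trypsin-like protease domain. HTRA1, HTRA3 and HTRA4 are secreted and start with an IGFBP-like and a Kazal-like module, and HTRA1 and HTRA3 cleave matrix proteins and dampen signaling by the TGF-beta family. HTRA2, also called Omi, sits in the intermembrane space of mitochondria, where it removes damaged proteins, and when released during apoptosis it binds and cleaves IAP proteins. Loss of HTRA1 and HTRA3 expression has been described in ovarian cancer, where HTRA1 is discussed as a tumor suppressor.

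The catalytic serine shows how alike, and how separable, the members are at the level of their transcripts. The sequences below are 81 coding bases from GENCODE 29 on GRCh38, all on the plus strand and spliced from exons 4 to 6 of HTRA1 and HTRA3 and from exons 3 to 5 of HTRA2, with the codon of the catalytic serine and 2 codons on each side in capitals. They are shown so that the members can be compared around the active site.
HTRA1 (serine codon 328, chr10:122506856-122508673): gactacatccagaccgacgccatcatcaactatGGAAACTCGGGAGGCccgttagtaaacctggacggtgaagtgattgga
HTRA2 (serine codon 306, chr2:74531076-74531614): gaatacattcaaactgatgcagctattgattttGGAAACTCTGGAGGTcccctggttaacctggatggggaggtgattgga
HTRA3 (serine codon 305, chr4:8291535-8294104): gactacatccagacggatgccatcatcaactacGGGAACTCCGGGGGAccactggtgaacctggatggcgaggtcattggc
HTRA1 and HTRA3 were identical at 65 of these 81 bases (80.2%), against 59 of 81 (72.8%) both for HTRA1 and HTRA2 and for HTRA2 and HTRA3. HTRA4, whose serine is codon 326, matched HTRA3 at 64 of 81 bases. Over the whole transcripts HTRA1-201, HTRA2-201, HTRA3-201 and HTRA4-201, the longest run of identical bases that any pair shared was 20 bases, for HTRA1 and HTRA2 and for HTRA1 and HTRA3. Reads were 150 bases long, so a read without mismatches could be placed on one member only.

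One library differed from the others in ways that touch the low members. PBS replicate 4 had 3953206 fragments, against 39325749 to 46551535 in the other 7 libraries, and of the 12486 genes with a mean of at least 0.5 FPKM, 58.0% had their lowest value in it. Values are therefore also given without this library. Between the groups, limma found 0 genes with an adjusted p under 0.05 (577 at an unadjusted p under 0.05 and, with limma's voom on the fragments, 0 and 594), and the smallest adjusted p was 0.740. At an unadjusted p under 0.05, 391 genes (3.13%) were higher and 186 (1.49%) lower in gluconate tumors, and 24 (0.192%) were also at least 2-fold higher. The median log2 difference of all genes tested was 0.07 with all libraries and 0.00 without PBS replicate 4.

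HTRA2 was by far the most expressed member. Across the 8 libraries its level was 19.9 ± 1.33 FPKM (SD, n = 8), that of HTRA1 2.42 ± 1.10 FPKM, that of HTRA3 1.02 ± 0.551 FPKM and that of HTRA4 0.0520 ± 0.0263 FPKM. HTRA2 gave 78.6% to 94.8% of the summed FPKM of the family. Among all genes listed, HTRA2 lay between the percentiles 87.0 and 88.7 of its library, HTRA1 between 53.6 and 67.6, and HTRA3 between 46.9 and 60.7. HTRA4 lay between 27.1 and 35.4 in the 7 libraries other than PBS replicate 4, where it had no fragment.

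The order of the levels was tested within libraries on the log2(FPKM + 0.1) scale with a two-sided exact sign-flip permutation test, adjusted over the 4 pairs compared. The pairs were chosen from the mean levels in these same libraries, and HTRA1 enters with the gluconate values on which the family was selected. The p-values therefore describe how steadily the order held across libraries and are no independent support for it. HTRA2 exceeded HTRA1 by 3.13 ± 0.736 (SD, n = 8; higher in 8 of 8 libraries; exact p = 0.00781, adjusted 0.0104). HTRA1 exceeded HTRA3 by 1.18 ± 0.589 in 7 of 8 libraries (exact p = 0.0156, adjusted 0.0156). HTRA3 exceeded HTRA4 by 2.75 ± 0.503 in 8 of 8 libraries (exact p = 0.00781, adjusted 0.0104), and by 2.85 without PBS replicate 4 (exact p = 0.0156 before adjustment). The size of this difference follows the pseudocount, with 0.90 at a pseudocount of 1 and 4.09 at 0.01. HTRA2 exceeded HTRA3 by 4.31 ± 0.780 (exact p = 0.00781, the smallest the test allows with 8 libraries). The exception was PBS replicate 2, where HTRA3 at 2.09 FPKM was above HTRA1 at 1.78 FPKM. HTRA1 and HTRA3 are thus the neighbours in this order that a single library can swap. In PBS replicate 4 the order of HTRA3 and HTRA4 rests on 4 fragments against 0 and is not resolved by the depth.

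**Figure D1:**
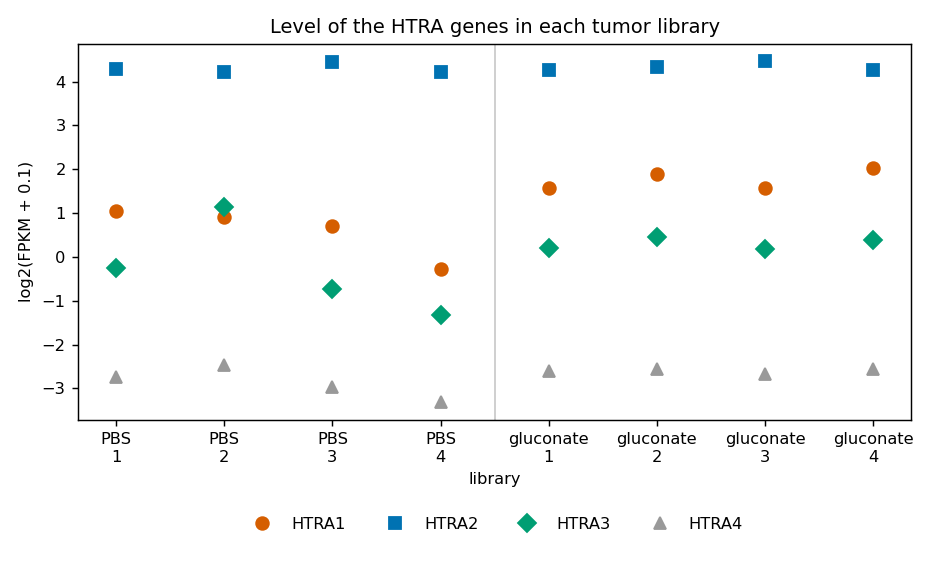
Level of each HTRA gene, as log2(FPKM + 0.1), in the 4 PBS and the 4 gluconate libraries. HTRA2 sits above 4 in every library and HTRA4 below -2, and HTRA3 passes HTRA1 in PBS replicate 2 only.

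HTRA1, the secreted protease on which the family was selected, was higher in gluconate tumors. In PBS tumors it was at 1.96, 1.78, 1.53 and 0.726 FPKM in replicates 1 to 4. In gluconate tumors it was at 2.89, 3.61, 2.87 and 3.96 FPKM. Every gluconate library was above every PBS library, with the nearest values at 2.87 and 1.96 FPKM, and the lowest value belonged to the shallow PBS replicate 4. These values rest on 187, 173, 128 and 6 fragments in PBS tumors and on 244, 323, 236 and 354 fragments in gluconate tumors. The 6 fragments of PBS replicate 4 give a 95% Poisson interval of 0.266 to 1.58 FPKM, which includes the value of PBS replicate 3. Such intervals cover counting error only.

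HTRA1 averaged 1.50 ± 0.545 FPKM under PBS and 3.33 ± 0.541 FPKM under gluconate (SD, n = 4 each), a ratio of 2.22. On the log2(FPKM + 0.1) scale the difference was 1.17 (standard error 0.28). Without PBS replicate 4 the PBS mean was 1.76 ± 0.214 FPKM (SD, n = 3), the ratio 1.90 and the log2 difference 0.88 (standard error 0.14). Of the 4 members, 1, HTRA1, had groups that did not overlap, where 2.08% of all genes tested were higher and 1.41% lower without overlap. Since the family was selected on this contrast, these shares are given as background and nothing is read from them. In tumor RNA, more cells that make HTRA1 and more HTRA1 RNA per cell in gluconate tumors cannot be told apart. HTRA1 gave 3.69% to 8.86% of the summed FPKM of the family in PBS tumors and 11.0% to 16.2% in gluconate tumors.

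**Figure D2:**
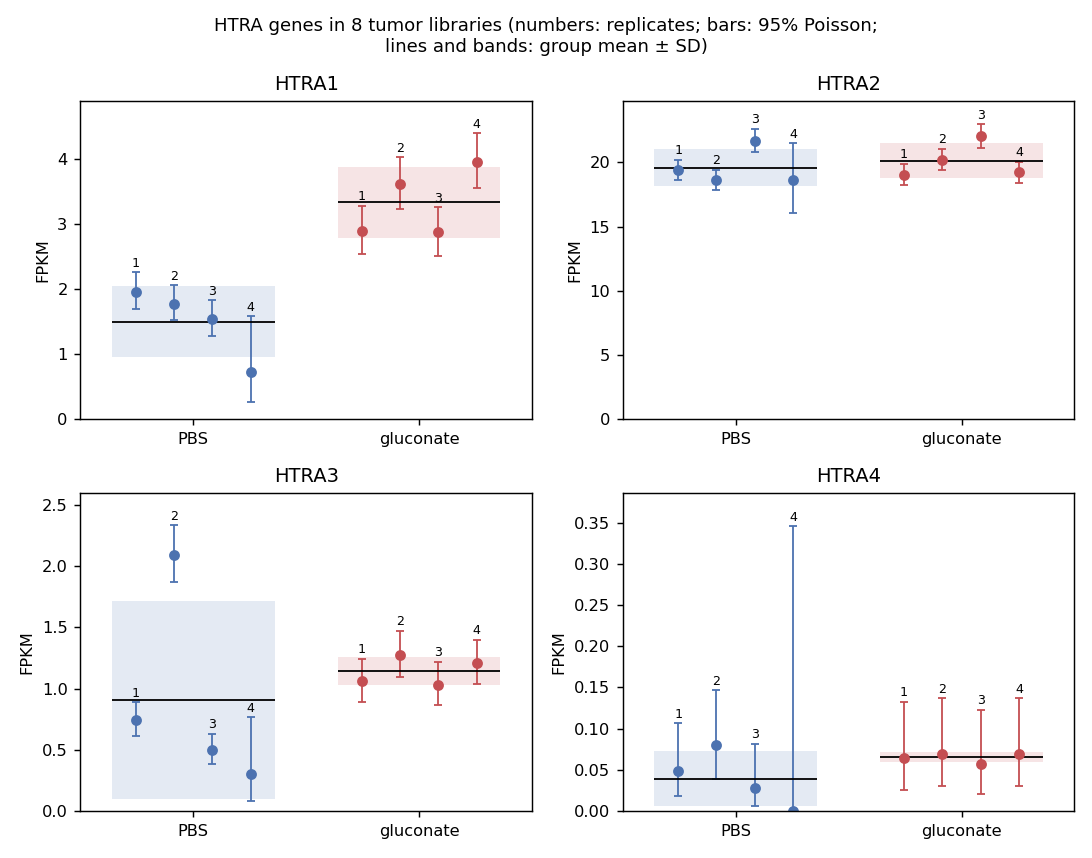
FPKM of the 4 HTRA genes in each library, with the replicate number above each point, 95% Poisson intervals as bars, and the group mean and SD as line and band. The HTRA1 panel shows the gluconate libraries at 2.87 to 3.96 FPKM, above the PBS libraries at 0.726 to 1.96, while in the other panels the groups overlap.

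HTRA3, the secreted member closest to HTRA1 in sequence, varied most among PBS tumors. It was at 0.740, 2.09, 0.497 and 0.300 FPKM in PBS replicates 1 to 4 (114, 329, 67 and 4 fragments). In gluconate tumors it was at 1.06, 1.27, 1.03 and 1.21 FPKM (144, 184, 137 and 174 fragments). The gluconate values fell inside the range of the PBS values, since PBS replicate 2 was the highest of all 8 libraries and the other PBS libraries were the 3 lowest. HTRA3 averaged 0.908 ± 0.811 FPKM under PBS and 1.14 ± 0.116 FPKM under gluconate (SD, n = 4 each). The spread among PBS tumors was 89.3% of their mean, against 10.2% in gluconate tumors.

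The log2 difference of HTRA3 was 0.60 (standard error 0.45, interval -0.40 to 1.61), so values from lower to over 2-fold higher in gluconate tumors are within the error. It was 0.26 without PBS replicate 4 and 1.08 (standard error 0.28) without PBS replicate 2, so the size of the HTRA3 difference depended on which PBS library was left out. Counted over all fragments of a group, HTRA3 was at 1.12 FPKM (95% Poisson interval 1.03 to 1.22) in PBS tumors and at 1.15 FPKM (1.06 to 1.24) in gluconate tumors. Weighted by depth in this way, the group levels of HTRA3 differed by less than their counting error.

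HTRA2, the mitochondrial member, differed little among the 8 tumors. It was at 19.4, 18.6, 21.7 and 18.6 FPKM in PBS replicates 1 to 4, the last from 190 fragments and the others from 2232 to 2280. In gluconate tumors it was at 19.0, 20.2, 22.0 and 19.2 FPKM, from 1982 to 2235 fragments. The groups overlapped throughout, and replicate 3 was the highest in both. HTRA2 averaged 19.6 ± 1.44 and 20.1 ± 1.37 FPKM (SD, n = 4 each), and the log2 difference was 0.04 (standard error 0.08, interval -0.15 to 0.23). Under another scaling between libraries, by median ratios, the sign turned (-0.03), so no direction is given for HTRA2. The shallow PBS replicate 4, the lowest library for HTRA1 and HTRA3, differed from PBS replicate 2 by less than 0.1 FPKM for HTRA2.

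HTRA4, the member known from placenta, was near the limit of detection. In PBS tumors it had 6, 10, 3 and 0 fragments (0.0488, 0.0797, 0.0279 and 0 FPKM). In gluconate tumors it had 7, 8, 6 and 8 fragments (0.0644, 0.0694, 0.0566 and 0.0694 FPKM). The count of 0 in PBS replicate 4 allows up to 0.281 FPKM, the worth of 3 fragments there and a one-sided limit (the two-sided Poisson interval reaches 0.346 FPKM), which is above the HTRA4 value of every other library. Over all fragments of a group, HTRA4 was at 0.0518 FPKM (95% Poisson interval 0.0312 to 0.0809; 19 fragments) in PBS tumors and at 0.0651 FPKM (0.0436 to 0.0935; 29 fragments) in gluconate tumors. A difference in HTRA4 was not detectable at this depth. Its log2 difference of 0.28, from a fit without a filter on low values, was 0.13 without PBS replicate 4.

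**Figure D3:**
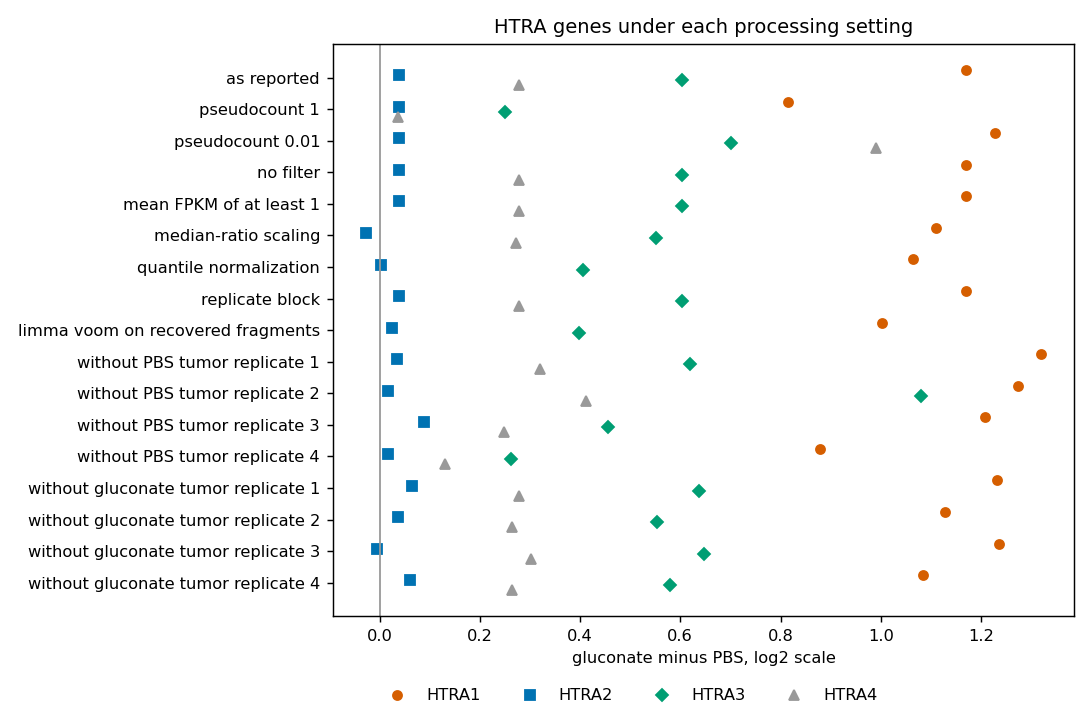
Log2 difference between gluconate and PBS tumors of the 4 HTRA genes under each way of processing the values, with 1 row per setting. HTRA1 stays between 0.81 and 1.32, HTRA2 between -0.03 and 0.09 and HTRA3 between 0.25 and 1.08. HTRA4, with a value of 0 in PBS replicate 4, ranges from 0.04 at a pseudocount of 1 to 0.99 at 0.01.

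The members lie on 4 chromosomes, and their neighbours were listed to see what else the fragments could come from. In RefSeq on GRCh38.p14, HTRA1 spans bases 122461553 to 122514907 of chromosome 10, plus strand. HTRA1-AS1, a lncRNA that ends 148 bases before it, was not analysed here, and DMBT1, 45847 bases behind it, was at 0.00266 ± 0.00378 and 0.0198 ± 0.0179 FPKM (SD, n = 4 each). HTRA3 lies on chromosome 4 from 8269754 to 8307098 and overlaps the lncRNA LOC105374373 by 428 bases, which had at most 0.141 FPKM in any library. SH3TC1, 28651 bases before HTRA3, was at 0.340 ± 0.159 and 0.420 ± 0.101 FPKM (SD, n = 4 each). HTRA3 was above SH3TC1 and LOC105374373 in every library, as HTRA1 was above DMBT1.

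HTRA2 lies on chromosome 2 from 74529405 to 74533556, with its start inside AUP1 (302 shared bases) and its end inside LOXL3 (1299 shared bases). AUP1, which acts in protein degradation at the endoplasmic reticulum, was at 67.0 ± 7.88 and 71.6 ± 4.88 FPKM (SD, n = 4 each), more than HTRA2. LOXL3, a lysyl oxidase that crosslinks collagen, was at 1.07 ± 0.285 and 1.13 ± 0.128 FPKM (SD, n = 4 each). Strand use in the counting is not given in the sources used here, so fragments from the shared bases could have been assigned to either gene. HTRA4 lies on chromosome 8 from 38974228 to 38988663, between PLEKHA2 at 316 bases (9.78 ± 2.40 and 11.7 ± 0.934 FPKM; SD, n = 4 each) and TM2D2 at 145 bases (16.6 ± 3.07 and 19.3 ± 1.25 FPKM). Both are far more abundant than HTRA4, and whether fragments of theirs reached its count was not tested.

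Among the substrates and partners of the secreted HTRA proteases, EFEMP1 and THBS1 were higher in gluconate tumors. Of the 20 listed genes, 19 are in the table and 13 were tested, of which 3, with MGP, were higher and 0 lower at an unadjusted p under 0.05 in limma, where 3.13% of all genes tested were higher and 1.49% lower. The median log2 difference of the 13 was 0.41, and 0.12 without PBS replicate 4. EFEMP1, or fibulin-3, a matrix protein that HTRA1 cleaves, was at 35.6, 23.2, 18.9 and 5.97 FPKM in PBS tumors and at 39.4, 32.5, 37.8 and 58.0 FPKM in gluconate tumors. Its highest PBS library lay inside the range of the gluconate libraries, and its lowest was again PBS replicate 4. The log2 difference of EFEMP1 was 1.22 (standard error 0.46, adjusted p = 0.740 in limma), and 0.71 without PBS replicate 4. The same adjusted p held for every other gene called below.

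THBS1, the matrix glycoprotein thrombospondin 1, was at 44.7 to 86.1 FPKM in PBS tumors and at 82.8 to 142 FPKM in gluconate tumors, a log2 difference of 0.58 (standard error 0.22), and 0.38 without PBS replicate 4, its lowest library. MGP, an inhibitor of calcification, was at 0.131 to 0.661 FPKM and 0.604 to 1.94 FPKM, a log2 difference of 1.10 (standard error 0.45). MGP passed the filter on low values through the gluconate libraries alone (mean 1.07 FPKM, against 0.442 FPKM in PBS tumors), so its call supports nothing, and with a mean of at least 1 FPKM 2 genes were called. Gluconate replicate 4 was the highest library for EFEMP1, THBS1 and MGP, and without it 1 of the 13 genes was called. The most abundant genes of the list, FN1 (fibronectin, 612 ± 205 and 827 ± 170 FPKM; SD, n = 4 each) and APP (the amyloid precursor, 229 ± 52.9 and 240 ± 4.87 FPKM), did not pass, nor did ADAM9 (82.5 ± 10.0 and 87.0 ± 3.19 FPKM). CLU had the lowest log2 difference, at -0.08.

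The TGF-beta family ligands that HTRA1 or HTRA3 bind were spread in both directions. Of 7 ligands, 5 were tested and 0 passed an unadjusted p under 0.05, where 3.13% of all genes tested were higher and 1.49% lower. With 5 genes, a count of 0 is near that background. TGFB1 was the most abundant, at 64.9 ± 8.36 and 68.3 ± 4.05 FPKM (SD, n = 4 each). BMP4 reached 11.4 FPKM in PBS replicate 4, where the other PBS libraries had 0.976 to 2.30 FPKM and the gluconate tumors 0.986 to 1.33 FPKM. TGFB3 was highest in the same library, at 5.70 FPKM, with 0.648 to 1.34 FPKM in PBS replicates 1 to 3 and 0.449 to 1.21 FPKM in gluconate tumors. The log2 difference of BMP4 went from -1.06 to -0.33 without PBS replicate 4, and that of TGFB3 from -0.78 to -0.14. TGFB2 had the highest difference, 0.60, which was -0.20 without PBS replicate 4.

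None of the tested partners of HTRA2 was called. Of 19 genes of apoptosis and mitochondrial quality control, 17 were tested and 0 passed, where 3.13% of all genes tested were higher and 1.49% lower. At these shares, 0 calls among so few genes is near the background, and nothing is read from it. The median log2 difference was 0.05 (-0.01 without PBS replicate 4). XIAP, the IAP protein that HTRA2 antagonises, was at 4.11 and 4.44 FPKM on average, a log2 difference of 0.13 (standard error 0.17), which was -0.01 without PBS replicate 4, so no direction is given. The most abundant were CYCS (cytochrome c, 60.4 ± 5.81 and 55.1 ± 2.96 FPKM; SD, n = 4 each), BIRC5 (survivin, 53.1 ± 3.38 and 53.1 ± 1.90 FPKM) and HAX1 (48.6 ± 12.3 and 53.5 ± 2.52 FPKM). WT1, whose product is a substrate of HTRA2, was at 1.07 to 1.82 FPKM in every library but PBS replicate 4, which had 6.58 FPKM.

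None of the other mitochondrial proteases tested was called. Of 18 genes, 17 were tested and 0 passed, again near the background (3.13% of all genes tested were higher and 1.49% lower). The median log2 difference was 0.02 (-0.03 without PBS replicate 4). The lowest was IMMP1L at -0.28 and the highest ATP23 at 0.40, which were -0.02 and 0.17 without PBS replicate 4. LONP1, the matrix protease that clears oxidised proteins, was at 41.1 ± 2.97 and 40.8 ± 1.95 FPKM (SD, n = 4 each). AFG3L2 and YME1L1, proteases of the inner membrane, were at 39.9 ± 6.40 and 39.9 ± 1.54 FPKM and at 34.0 ± 6.83 and 39.0 ± 2.22 FPKM. HTRA2, at 19.6 and 20.1 FPKM, was thus below LONP1, AFG3L2 and YME1L1 in mean level.

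**Figure D4:**
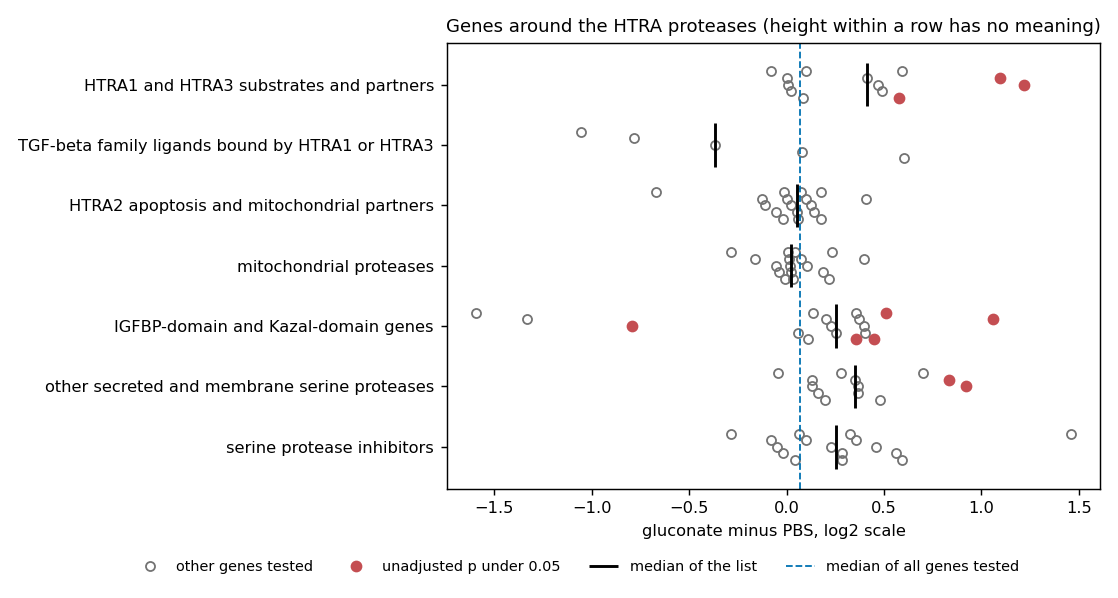
Log2 difference between gluconate and PBS tumors of each tested gene in 7 groups of genes around the HTRA proteases, with genes at an unadjusted p under 0.05 filled, the median of each group as a black line and that of all genes tested (0.07) dashed. The filled points lie among the substrates, the IGFBP-domain and Kazal-domain genes and the other serine proteases. The mitochondrial groups sit around the dashed line, and they, the ligands and the inhibitors have no filled point. Over all genes tested, 3.13% were called higher and 1.49% lower, so an empty group of this size is near the background.

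Among the genes that share the IGFBP-like or Kazal-like module with the secreted HTRA proteases, FSTL1, SPARC, CCN2 and KAZALD1 were higher in gluconate tumors and IGFBP1 was lower. Of 27 listed genes, 25 are in the table and 17 were tested, of which 4 were higher and 1 lower (3.13% and 1.49% of all genes), with a median log2 difference of 0.25 (0.14 without PBS replicate 4). FSTL1, a secreted glycoprotein with a follistatin module, was at 121, 114, 101 and 98.6 FPKM in PBS tumors and at 135, 122, 139 and 161 FPKM in gluconate tumors. Every gluconate library was above every PBS library, and the log2 difference was 0.36 (standard error 0.10). FSTL1 was the only one of the 17 genes tested whose groups did not overlap (2.08% of all genes were higher without overlap), and it kept an unadjusted p under 0.05 whichever of the 8 libraries was left out.

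SPARC, a collagen-binding matricellular protein, was at 210 ± 38.5 and 287 ± 49.4 FPKM (SD, n = 4 each), a log2 difference of 0.45 (standard error 0.16). CCN2, or connective tissue growth factor, was at 87.3 ± 20.4 and 124 ± 23.5 FPKM, a log2 difference of 0.51 (standard error 0.19). KAZALD1, which carries an IGFBP-like and a Kazal-like module as HTRA1 does, was at 2.24, 1.75, 1.63 and 0.349 FPKM in PBS tumors and at 2.11, 2.99, 2.93 and 2.98 FPKM in gluconate tumors. The KAZALD1 difference of 1.06 (standard error 0.46) was 0.53, and still called, without PBS replicate 4, its lowest library. IGFBP1, an insulin-like growth factor binding protein, was the gene called lower, with 0.739 to 1.17 FPKM in PBS tumors and 0.293 to 0.834 FPKM in gluconate tumors (log2 difference -0.79, standard error 0.29). FST and IGFBP7 had the lowest differences without passing, and both were high in PBS replicate 4, at 12.3 and 24.8 FPKM against at most 1.13 and 3.27 FPKM elsewhere. CCN1, among the most abundant here, was at 211 ± 49.8 and 239 ± 31.2 FPKM. Without gluconate replicate 3, 1 of these 17 genes was called, and without gluconate replicate 4, 2 were.

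Among the other secreted and membrane serine proteases, C1S and C1R were higher in gluconate tumors. Of 32 listed genes, 28 are in the table and 13 were tested, of which 2 were higher and 0 lower (3.13% and 1.49% of all genes), with a median log2 difference of 0.35 (0.18 without PBS replicate 4). C1S and C1R are the serine proteases that start the classical complement pathway. C1S was at 24.6, 25.4, 18.6 and 9.34 FPKM in PBS tumors and at 25.8, 30.3, 33.7 and 42.0 FPKM in gluconate tumors, without overlap as in 2.08% of all genes on the higher side. Its log2 difference was 0.83 (standard error 0.30), and 0.51 without PBS replicate 4. C1R was at 45.4 ± 21.9 and 77.2 ± 14.4 FPKM (SD, n = 4 each), a log2 difference of 0.92 (standard error 0.38), and 0.50 without PBS replicate 4. C1R and C1S were still called without that library. Without gluconate replicate 4, 0 of the 13 were called. PRSS23 (74.0 ± 23.0 and 102 ± 28.4 FPKM) and PLAU, the urokinase (82.7 ± 61.1 and 67.0 ± 4.71 FPKM), did not pass, and PLAU reached 172 FPKM in PBS replicate 3 against 33.4 to 71.3 FPKM elsewhere.

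Serine protease inhibitors held 0 calls among the 16 tested of 25 listed, near the background (3.13% of all genes tested were higher and 1.49% lower). Their median log2 difference was 0.25 (0.04 without PBS replicate 4). The highest values were those of WFDC2 (1.46, and 0.61 without PBS replicate 4) and SERPING1, the C1 inhibitor (0.59, and 0.14 without it), and the lowest those of TFPI (-0.28) and SPINK5 (-0.08). WFDC2, known as the ovarian cancer serum marker HE4, was listed at 0 in PBS replicate 4, while the others had 0.398 to 2.23 FPKM. SERPINH1, a collagen chaperone, was at 139 ± 50.9 and 182 ± 21.6 FPKM (SD, n = 4 each), and SPINT2 at 148 ± 22.6 and 151 ± 11.4 FPKM.

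Markers of other cell types were read beside the secreted members, since HTRA1 and HTRA3 are also made by stromal cells. Among 12 ovarian carcinoma markers, 8 were above 1 FPKM on average, PAX8 at 42.7 FPKM among them, and KRT19, MUC16 and CDH1 were below 0.1 FPKM. KRT7 was called higher in gluconate tumors, at 220 and 344 FPKM on average (log2 difference 0.73). Of 10 fibroblast markers, COL1A2, DCN, PDGFRA, THY1 and POSTN were below 0.1 FPKM, while COL1A1 was at 145 FPKM. The sum of the 10 listed markers was 130 to 185 FPKM in PBS replicates 1 to 3, 165 to 192 FPKM in gluconate tumors and 45.3 FPKM in PBS replicate 4. This shallow library also held the lowest value of 58.0% of all genes tested. Most of the sum was COL1A1, 121 to 182 FPKM in 7 libraries and 41.4 FPKM in PBS replicate 4. The sum thus follows a single gene and is no measure of fibroblasts. The 5 fibroblast markers tested all had a difference above 0, with a median of 0.49 (0.20 without PBS replicate 4), and 0 were called. The part of KRT7 and the fibroblast markers in the HTRA1 values was not tested.

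The remaining marker groups were mostly near 0. Of 8 endothelial markers, 5 were below 0.1 FPKM, with sums of 6.50 to 8.87 FPKM in PBS replicates 1 to 3, 5.64 to 9.08 FPKM in gluconate tumors and 4.25 FPKM in PBS replicate 4. Of the 6 myeloid markers in the table, 4 were below 0.1 FPKM, PTPRC, CD14, CSF1R and LYZ, and the sums, in the same order 25.9 to 29.0, 20.8 to 28.0 and 27.1 FPKM, came mostly from CD68. Granulosa and theca cell markers were below 0.1 FPKM in 7 of 9, with sums of 5.67 to 6.90, 3.67 to 5.54 and 22.9 FPKM. The last sum was mostly FOXL2, at 21.5 FPKM in PBS replicate 4 against 1.56 to 3.60 FPKM elsewhere, while AMH was lowest there, at 1.40 FPKM. Of the 8 trophoblast markers in the table, 6 were below 0.1 FPKM, among them CGA, and the sums of 32.4 to 177, 23.2 to 44.2 and 93.7 FPKM came mostly from KISS1. The sources used here do not say whether mouse fragments were removed before human genes were counted.

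The genes whose levels followed each member most closely over the 8 libraries were found by Pearson's r of log2(FPKM + 0.1). The points share the depth of PBS replicate 4 and, for HTRA1, the group difference on which it was chosen, so r is a description. For HTRA1, genes among the highest were HERPUD2-AS1 (r = 0.984, and 0.973 without PBS replicate 4), FKBP1B (0.977 and 0.948), DISP1 (0.975 and 0.935) and EMP2 (0.974 and 0.933). DISP1, which releases Hedgehog ligands, was at 0.319 to 0.575 FPKM in PBS tumors and at 0.667 to 0.734 FPKM in gluconate tumors. DISP1 passed the filter on low values through the gluconate libraries alone (mean 0.690 FPKM, against 0.460 FPKM in PBS tumors), so its place here supports nothing. Of 12485 other genes, 317 had an r over 0.9 with HTRA1, and the median r was 0.485.

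For HTRA3 the highest were ACER3 (r = 0.985, and 0.971 without PBS replicate 4), NAPRT (0.985 and 0.974), PDIA6 (0.980 and 0.962), GDF11 (0.974 and 0.950) and AKT1 (0.970 and 0.957), all highest in PBS replicate 2 as HTRA3 was. AKT1, the kinase, was at 52.5 FPKM in that library and at 36.4 to 48.7 FPKM in the others. For HTRA2 the highest were HILPDA-AS1 (0.949 and 0.979), ZNF394 (0.928 and 0.923), FBXL18 (0.923 and 0.929), KRBOX5 (0.919 and 0.906) and PTPRG-AS1 (0.916 and 0.911). All 5 were highest in replicate 3 of each group, as HTRA2 was, and 9 genes had an r over 0.9 with HTRA2, against 147 with HTRA3. The median r over all genes was 0.231 for HTRA2 and 0.421 for HTRA3.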

How the data were processed

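The deposited table holds FPKM values of 24196 genes in 8 libraries, which the authors made from polyA RNA sequencing. GRCh38 is the build named in the submitters' processing notes, and the aligner, annotation, counting and strand use are not given in the sources used here. Columns headed C were read as PBS and T as gluconate, because the study plots gluconate against PBS as T over C and these are the groups of 4. No label spells the letters out. The knockout libraries of the series were not analysed here.

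Deposited FPKM values fell on steps of 1 fragment (100% of genes, tolerance 1e-06), from which fragments, depths and 95% Poisson intervals were recovered. Groups were compared on log2(FPKM + 0.1) by a two-sided unpaired fit of limma (version 3.58.1 under R 4.3.3; lmFit and eBayes, trend on) over 12486 genes, those whose mean reached 0.5 FPKM, with Benjamini-Hochberg adjustment. On this scale the differences of low genes are understated. A gene was called at an unadjusted p under 0.05. The fit was tested on simulated data. Tables were made with Python 3.11.15, numpy 2.4.6, scipy 1.17.1, pandas 2.3.3 and matplotlib 3.10.9.

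The members, the gene lists and the tests were chosen with earlier results of these data known. Named genes are the members, the genes that overlap or flank them, the 5 genes with the highest r for HTRA1, HTRA2 and HTRA3, and in each list the genes called, the 2 highest and 2 lowest differences and the 3 highest mean levels. Of the genes this rule takes, 3 are not reported here. Other genes named, among them XIAP and the markers, were picked after their values were seen. Alternatives were pseudocounts of 1 and 0.01, no filter, a mean FPKM of at least 1, median-ratio scaling, quantile normalization, limma's voom on the recovered fragments, a replicate block and fits that dropped each library once.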

Additional observations from a re-analysis of the deposited data

Results flagged for a closer look

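Dixon's ratio, the gap of the most extreme library to its nearest neighbour over the range of the group, was computed in 24 groups of 4 libraries, of which chance would place 1.2 past its 95% critical value and 2 were past it. The depth of PBS replicate 4, at 3953206 fragments, was far from that of the other PBS libraries (ratio 0.844). The summed FPKM of the HTRA1 and HTRA3 substrates and partners in gluconate replicate 3, at 1651 FPKM, was above the 1309 to 1348 FPKM of the other gluconate libraries (ratio 0.887), and FN1 was at 1082 FPKM in it against 728 to 757 FPKM in the others.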

How the results depend on the processing

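Over all alternatives and libraries left out, the log2 difference lay between 0.81 and 1.32 for HTRA1 and between 0.25 and 1.08 for HTRA3, both above 0 throughout, while that of HTRA2 (-0.03 to 0.09) changed sign. The steady sign of HTRA1 is no support, since its groups did not overlap and leaving out a library could not turn it. A changed filter or a replicate block leaves the difference as it was, at 1.17 for HTRA1. HTRA4 was not run under voom and quantile normalization, where it was below the filter, and its difference rose from 0.28 to 0.99 with a pseudocount of 0.01. The order of HTRA2, HTRA1, HTRA3 and HTRA4, itself read from these libraries, kept its direction and an exact p under 0.05 under both pseudocounts and without each library. Leaving out each library in turn gave 1 to 6 called genes among the substrates and partners, 0 to 1 among the TGF-beta family ligands, 0 to 1 among the mitochondrial proteases, 1 to 7 among the IGFBP-domain and Kazal-domain genes, 0 to 4 among the other serine proteases and 0 to 3 among the serine protease inhibitors, against 3, 0, 0, 5, 2 and 0 with all libraries. The inhibitors had 1 called gene with no filter, 1 with median-ratio scaling and 2 with quantile normalization, and the HTRA2 partners 1 with median-ratio scaling. Over all genes, 577 were called, 1028 with no filter, and 267 (without gluconate replicate 4) to 1216 (without PBS replicate 1) with a library left out. The cause was not tested. Whether the replicate numbers pair the libraries cannot be told from so few libraries. Same-numbered libraries correlated at -0.18 to 0.17 in their deviations. For PBS replicates 2 and 3 the best partner was the same-numbered library, and for replicates 1 and 4 it was another. With a replicate block, the HTRA1 difference was 1.17 (standard error 0.30), the other serine proteases had 1 called gene and all genes 470. Depth limits HTRA4 in every library and all secreted members in PBS replicate 4.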
